A study of Homo sapiens with 4 samples.

Results

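CDK8 peaks found in normoxic HCT116 cells and lying more than 10 kb from any CDK8 peak of the same cells under hypoxia are described here. They were chosen from the deposited peak lists as the normoxia peaks on chromosomes 1 to 22 and X whose edges have no peak of either hypoxia list overlapping them or within 10 kb. The rule gave 1696 lone normoxia peaks of 19859 normoxia peaks on these chromosomes, or 8.54% (Wilson 95% interval 8.16 to 8.94, which covers counting error only). The 3 lists together hold 55979 peaks there. Absence from the hypoxia lists chose these peaks, so their absence there is a description and was not tested.

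The study used chromatin immunoprecipitation followed by sequencing (ChIP-seq) for CDK8 in HCT116, an established human colorectal cancer line. The groups are 1 CDK8 library from normoxic cells and 2 CDK8 libraries, labelled replicates 1 and 2, from cells held for 24 h in 1% oxygen. All 3 were precipitated with the same antibody lot, and the labels name no genotype change or further agent. Whether the hypoxia replicates are separate cultures is not in the labels, so differences between them may be only technical. A further library of 1 input sample was not used here.

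CDK8 is a kinase that works with cyclin C, MED12 and MED13 as the kinase module of Mediator, the complex that links DNA-bound transcription factors to RNA polymerase II. The module joins and leaves the core complex reversibly, and CDK8 is found at both promoters and enhancers. In colorectal cancer CDK8 is known as an oncoprotein that aids beta-catenin-driven transcription, and under hypoxia it is known as a co-activator for genes bound by HIF1A, the oxygen-regulated transcription factor. CDK8 reaches DNA through other proteins, and a peak is a stretch where precipitated fragments pile up above control. The series asks how its positions compare between normoxia and hypoxia. The lone normoxia peaks are the places that were listed under normoxia with no hypoxia peak in the neighbourhood. No annotation or sequence of GRCh37/hg19, the build of the lists, was used here, so peaks are named by position and not by gene.

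Lone normoxia peaks made up a share of their list that lay between those of the 2 hypoxia libraries. By the same rule, 3520 of 21869 peaks of hypoxia replicate 1 (16.1%, 15.6 to 16.6) and 657 of 14251 peaks of hypoxia replicate 2 (4.61%, 4.28 to 4.97) were lone. The lone normoxia peaks covered 0.532 Mb, or 5.78% of the 9.20 Mb under normoxia peaks. Hypoxia replicate 1 had 12.2% of its covered length in lone peaks, and hypoxia replicate 2 had 3.27%. With the lists as deposited, the normoxia share, lying between the other 2, could differ from neither by more than they differed from each other. These are shares of lone peaks and do not measure how many peaks 2 lists have in common. The rule is also unbalanced. Each hypoxia list was set against another hypoxia list and normoxia, while normoxia was set against hypoxia lists only. The peaks kept in a list bear on these shares. With the 14256 best-scoring peaks of each list, lone peaks were 8.24% of normoxia, 14.5% of hypoxia replicate 1 and 11.0% of hypoxia replicate 2. Normoxia then had the lowest share. Its difference from hypoxia replicate 1 was then larger than that between the hypoxia lists, so the order depends on the peaks kept. This cut shortens normoxia and hypoxia replicate 1 and also leaves out their lowest scores. List length and score therefore cannot be told apart here. No test was run, since exchanging the labels of 1 normoxia and 2 hypoxia libraries cannot give an exact permutation p below 0.333. Read depth is unknown, as the lists hold no read counts, and a peak that one list lacks may have fallen just under its calling threshold.

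**Figure D1:**
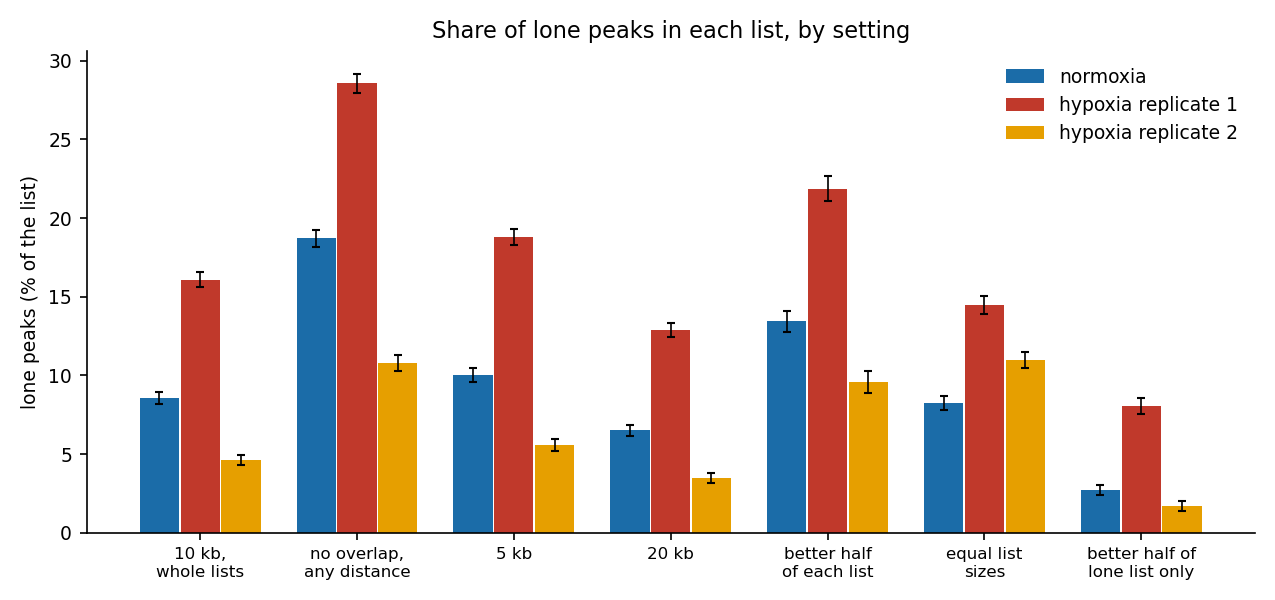
Share of peaks (percent of the list, vertical axis) that are lone in normoxia and in each hypoxia replicate, by the distance required and by the peaks kept; error bars are Wilson 95% intervals. Normoxia (8.54% in the leftmost group) lies between the hypoxia replicates in every group of bars except equal list sizes, where it is lowest at 8.24%.

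The 2 hypoxia libraries differed in which normoxia peaks they lacked. With hypoxia replicate 1 as the only hypoxia list, 3034 normoxia peaks (15.3%) were more than 10 kb from its peaks, and 55.9% of these were also distant from hypoxia replicate 2. With hypoxia replicate 2 as the only hypoxia list, 4865 normoxia peaks (24.5%) were distant, and 34.9% of these were also distant from hypoxia replicate 1. Leaving out either hypoxia library therefore raised the share by more than 1.5 times. Of the normoxia peaks distant from hypoxia replicate 1, 1338 lay within 10 kb of a hypoxia replicate 2 peak and 1130 overlapped one. These were 6.74% and 5.69% of all normoxia peaks. Of those distant from hypoxia replicate 2, 3169 lay within 10 kb of a hypoxia replicate 1 peak and 2651 overlapped one, or 16.0% and 13.3%. Each hypoxia library thus listed peaks near normoxia sites that the other lacked. Hypoxia replicate 2 is the shorter list, with 14251 peaks against 21869. Absences also coincided: the 55.9% distant from hypoxia replicate 2 stand beside 24.5% of all normoxia peaks. The 34.9% distant from hypoxia replicate 1 stand beside 15.3%.

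Lone normoxia peaks were mostly low-scoring and narrow. The score was assigned to each peak by the authors on a scale that is not stated, and it is given as a percentile within its list, where 100 is the best peak. The lone normoxia peaks had a median percentile of 24.0 (quartiles 11.5 and 41.2) and a median width of 273.5 bp (241 and 347). With equal list sizes, which leave out the lowest normoxia scores, the median percentile was 45.6 and the median width 311 bp. Normoxia peaks that overlapped peaks of both hypoxia lists had a median percentile of 71.1 and a median width of 474 bp. Those that overlapped a peak of 1 hypoxia list lay between, at 39.9 and 335 bp. A further 2022 normoxia peaks overlapped no hypoxia peak but had one within 10 kb, and their medians of 22.1 and 281 bp were close to those of the lone peaks. Of these 2022, 894 had a hypoxia peak at most 500 bp away, 285 at more than 500 bp and up to 1 kb, and 293 at more than 5 kb. Being far from a hypoxia peak rather than just beside one thus went with little difference in score or width.

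**Figure D2:**
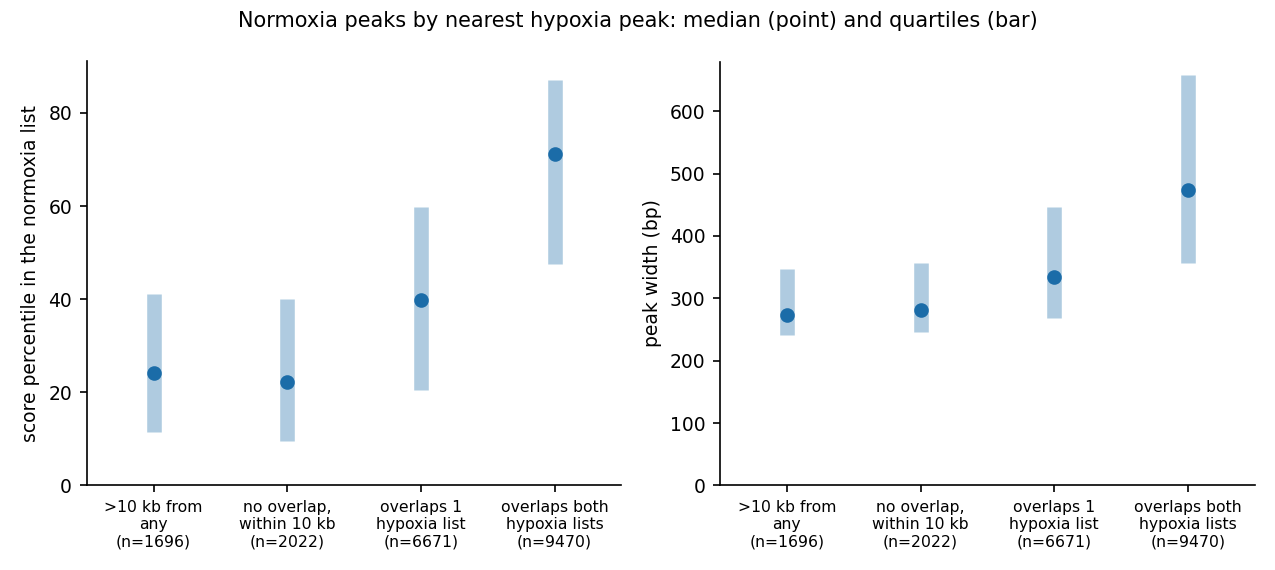
Score percentile in the normoxia list (left) and width in bp (right) of normoxia peaks grouped by their nearest hypoxia peak; points are medians and bars run between the quartiles. The 1696 lone peaks (medians 24.0 and 273.5 bp) lie close to the 2022 with a hypoxia peak within 10 kb and well below the 9470 that overlap both hypoxia lists.

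The shortest width was more frequent among lone normoxia peaks than in their whole list, though only a minority had it. The shortest normoxia peak is 226 bp, and 153 lone peaks (9.02%, 7.75 to 10.5) were exactly that wide, against 608 of all 19859 normoxia peaks (3.06%). Of the 2022 normoxia peaks with a hypoxia peak within 10 kb but no overlap, 164 (8.11%) had this width. Lone peaks were at their list's shortest width in 5.99% of cases in hypoxia replicate 1 and 10.4% in hypoxia replicate 2. Over all peaks of those lists it was 2.27% and 4.17%. The trait is thus not particular to lone normoxia peaks. A single lone normoxia peak was wider than 1 kb, while 882 normoxia peaks in all were. Score and width go together, so widths were also set side by side at like scores. Among normoxia peaks in the lowest 20% of scores, 718 lone peaks had a median width of 257.5 bp and 2312 that overlapped a hypoxia peak had 284 bp. Between percentiles 60 and 80, 136 lone peaks had a median width of 333.5 bp and 3695 overlapping ones had 452 bp. The lone peaks were narrower at the median in each of the 5 score classes. In the 4 lower ones the intervals of the medians did not overlap. A wide peak is likelier to be overlapped, so the overlapping peaks are themselves selected for width. Peaks with a hypoxia peak within 10 kb but no overlap were not compared at like scores. The lone peaks of the hypoxia lists were also low and narrow, with median percentiles of 29.8 in replicate 1 and 26.9 in replicate 2, and median widths of 228.5 and 269 bp against 294 and 352 bp over all peaks of those lists.

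The share of lone peaks was lower at higher scores in each of the 3 lists. In normoxia it was 18.8% (17.1 to 20.6) in the lowest decile of scores, 9.28% in the fifth decile from the bottom, 1.86% in the eighth and 0.0504% in the top decile. The top decile held a single lone peak among 1986. Hypoxia replicate 1 went from 29.5% to 4.04% between the lowest and the top decile, and hypoxia replicate 2 from 9.70% to 0 of 1423 peaks, where 0.211% would be the share of 3 peaks. Of the lone normoxia peaks, 267 were above percentile 50 of their list, 32 above percentile 75 and 1 above percentile 90. Above percentile 90, hypoxia replicate 1 had 88 lone peaks and hypoxia replicate 2 had 0. The high-scoring normoxia peaks were thus almost all within 10 kb of a hypoxia peak, and of the 3 lists hypoxia replicate 1 alone had many lone peaks at the top.

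**Figure D3:**
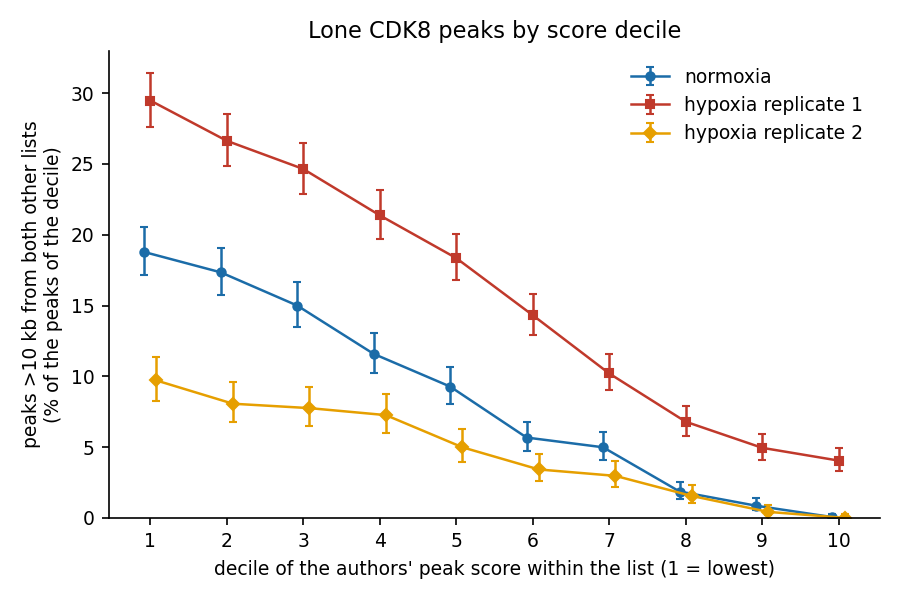
Percent of peaks that are lone (vertical axis) in each decile of the authors' score within a list (horizontal axis, 1 is lowest), for normoxia and both hypoxia replicates, with Wilson 95% intervals. Normoxia falls from 18.8% to 0.0504%, between the hypoxia replicates over the lower deciles and next to hypoxia replicate 2 in the upper ones.

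Hypoxia replicate 1 stands apart from both other lists in a way that touches this comparison. In 21 windows of 1 Mb it alone held at least 10 joined regions and at least 80% of all joined regions, a rule set after seeing the data. They hold 658 of its peaks, 580 of them lone, against 18 normoxia peaks and 27 of hypoxia replicate 2. None of the 1696 lone normoxia peaks lay in them. Without the windows, lone peaks were 13.9% of hypoxia replicate 1, 38 of them were above percentile 90, and the lone share above percentile 90 was 1.81% against 4.04% with the windows. The normoxia share was then 8.55%. The windows were picked where hypoxia replicate 1 held nearly all regions. Leaving them out could therefore hardly move the normoxia share and had to lower that of hypoxia replicate 1, so nothing is read from either.

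The 10 highest-scoring lone normoxia peaks lay on 9 chromosomes. The first was a 298 bp peak at chr6:18749695-18749992, at percentile 91.5, and the nearest peaks of hypoxia replicates 1 and 2 were 56.2 and 56.2 kb away. The second, of 562 bp at chr18:46502128-46502689, was at percentile 88.3, with a hypoxia peak 14.3 kb away. The third, of 390 bp at chr9:139137320-139137709, was at percentile 86.0, and its nearest hypoxia peak was 21.4 kb away. In all 3 cases the nearest other normoxia peak, at 56.1, 14.4 and 21.5 kb, overlapped a peak of both hypoxia replicates. The hypoxia lists thus held the neighbouring normoxia site and lacked the high-scoring lone one. This was so for 7 of the 10 best-scoring lone peaks and for 38.3% of all lone peaks, while 47.7% of all normoxia peaks overlapped both hypoxia lists; with 10 peaks, nothing is read from the difference.

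The next peaks showed other surroundings. A 387 bp peak at chr14:77030921-77031307 (percentile 85.9) had no hypoxia peak within 215 kb and no other normoxia peak within 196 kb. A 483 bp peak at chr10:13389584-13390066 (percentile 84.8) had another normoxia peak only 58 bp away, while the nearest hypoxia peak was 47.2 kb away. An 897 bp peak at chr1:41445043-41445939 (percentile 84.6) was among the widest too, and lay 11.1 kb from a peak of each hypoxia replicate. A 316 bp peak at chr7:38217824-38218139 (percentile 84.6) was 257 kb from hypoxia replicate 2 and 685 kb from hypoxia replicate 1. At chr13:95953237-95953991, a 755 bp peak (percentile 82.9) was 12.8 kb from hypoxia replicate 1 and 44.5 kb from hypoxia replicate 2. The last of the 10 were a 282 bp peak at chr11:75062759-75063040 (percentile 82.8) and a 300 bp peak at chr10:86287264-86287563 (percentile 82.5), at 25.4 and 32.8 kb from hypoxia peaks. Among these 10 the nearest hypoxia peaks ranged from 11.1 to 257 kb away, so a high score came with both short and long distances.

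The 5 widest lone peaks ranged from percentile 40.7 to 84.6, and 1 of them was also among the 10 best-scoring. The widest, 1041 bp at chr1:205648814-205649854, was at percentile 74.2 and lay 15.0 kb from a peak of each hypoxia replicate. Next came 949 bp at chr10:134209513-134210461 (percentile 50.1) and 949 bp at chr12:19282235-19283183 (percentile 60.1). The chromosome 10 peak was 11.0 kb from hypoxia replicate 1 and 50.4 kb from hypoxia replicate 2, and another normoxia peak lay 900 bp from it. After the 897 bp peak on chromosome 1 named above, the fifth was 871 bp at chr14:94254533-94255403 (percentile 40.7), 170 kb from each hypoxia replicate and also from the nearest other normoxia peak. Width among the lone peaks therefore reached only a little above 1 kb, whereas the widest normoxia peak was 8447 bp.

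Lone normoxia peaks lay at widely varying distances from hypoxia peaks. The median distance to the nearest hypoxia peak was 41.1 kb (quartiles 20.7 and 85.2), and it was 46.2 kb to hypoxia replicate 1 and 59.5 kb to hypoxia replicate 2, the shorter list. The nearest hypoxia peak belonged to replicate 1 for 1068 lone peaks (63.0%) and to replicate 2 for 623 (36.7%). Replicate 1 holds 21869 peaks and replicate 2 holds 14251. A longer list is likelier to hold the nearest peak, so nothing is read from this split. The nearest hypoxia peak was more than 50 kb away for 723 lone peaks (42.6%) and more than 100 kb away for 357. It was more than 500 kb away for 28 and more than 1 Mb away for 11. Median percentiles were 22.1 for lone peaks at 10 to 20 kb from a hypoxia peak, 25.1 at 20 to 50 kb, 25.2 at 50 to 100 kb, 22.6 at 100 to 500 kb and 26.7 beyond 500 kb. The intervals of these medians overlapped, and they followed no order with distance. In 1107 cases (65.3%) the nearest hypoxia peak overlapped a normoxia peak, beside 66.9% of all hypoxia replicate 1 peaks and 82.6% of all hypoxia replicate 2 peaks. The share for the lone peaks was thus no higher than over all peaks of either hypoxia list.

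**Figure D4:**
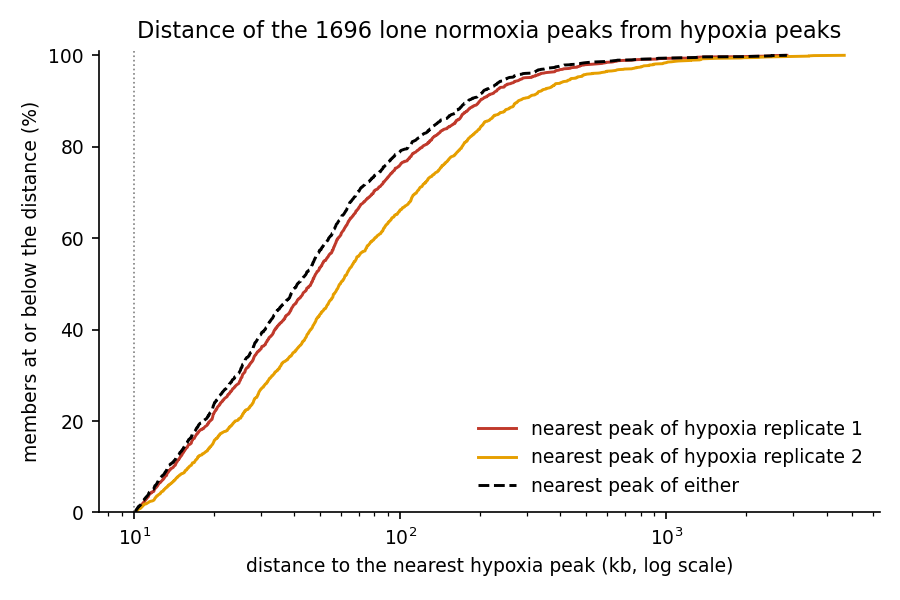
Cumulative percent of the 1696 lone normoxia peaks (vertical axis) against the distance in kb to the nearest peak of hypoxia replicate 1, of hypoxia replicate 2 and of either (horizontal axis, log scale); the dotted line marks the 10 kb rule. The medians are 46.2, 59.5 and 41.1 kb, and the curves start at 10 kb because the rule removed all nearer peaks.

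The 10 kb limit cuts through a continuous range of distances. Just inside it were peaks at chr1:28868663-28869070 (10053 bp from the nearest hypoxia peak, percentile 0.433), chr11:108756159-108756397 (10062 bp, percentile 11.1) and chr1:2126419-2126762 (10078 bp, percentile 8.29). Just outside were chr10:123368254-123368549 (9995 bp, percentile 52.3), chr14:105261444-105261745 (9986 bp, percentile 37.9) and chr9:130965478-130965703 (9935 bp, percentile 3.79). The chromosome 10 peak was left out through hypoxia replicate 2 alone, as the nearest hypoxia replicate 1 peak was 283 kb away. A distance of 5 kb gave 1989 lone normoxia peaks and one of 20 kb gave 1293.

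The farthest lone peaks stood in regions with few peaks of any list. The farthest was a 447 bp peak at chr13:84195892-84196338 (percentile 38.2), 2839 kb from hypoxia replicate 1, 3580 kb from hypoxia replicate 2 and 3280 kb from any other normoxia peak. On chromosome X, a pair at chrX:139014167-139014596 (430 bp, percentile 44.6) and chrX:139014921-139015172 (252 bp, percentile 17.1) lay 324 bp apart and 2494 kb from hypoxia replicate 1. A second chromosome X site, chrX:7066026-7066400 (375 bp, percentile 64.5), was 2244 kb from hypoxia replicate 2 and about as far from any other normoxia peak. The fifth was a 631 bp peak at chr4:22517325-22517955 (percentile 52.2), 2068 kb from hypoxia replicate 1. Apart from the chromosome X pair, each of these was alone in normoxia as well, with no other normoxia peak within 500 kb.

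Lone normoxia peaks also had fewer other normoxia peaks near them than the rest of the list had. Another normoxia peak lay within 10 kb of 253 lone peaks (14.9%, 13.3 to 16.7), against 56.1% of all other normoxia peaks. Within 500 kb of its centre a lone peak had a median of 10 other normoxia peaks, a peak that overlapped a hypoxia peak had 15, and a peak with a hypoxia peak within 10 kb but no overlap had 19. The nearest other normoxia peak overlapped a peak of both hypoxia lists for 650 lone peaks (38.3%, 36.0 to 40.7), of 1 list for 510 and of neither for 536 (31.6%). Over all normoxia peaks 47.7% overlapped both lists and 18.7% neither. The rule favours sparse regions, since a hypoxia peak within 10 kb is likelier where peaks are dense, so these values show what the rule selects. Another normoxia peak lay within 1 kb of 169 lone peaks, and the rule makes such a close neighbour nearly always lone as well.

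Chaining lone normoxia peaks within 50 kb of each other gave 1498 groups, of which 1322 held a single peak, 156 held 2, 18 held 3 and 2 held 4. In all, 374 lone normoxia peaks (22.1%) had another within 50 kb. The share was 11.1% in hypoxia replicate 2, 40.5% in hypoxia replicate 1 and 29.0% in hypoxia replicate 1 without the windows. Shares rose with the number of lone peaks, 657 in hypoxia replicate 2 and 1696 in normoxia. Hypoxia replicate 1 had 2940 without the windows and 3520 with them. More lone peaks give closer neighbours by construction, so these shares do not compare clustering between the lists. The first group of 4 lay on chromosome 20, with peaks at chr20:62669822-62670173 (percentile 48.3), chr20:62670252-62670557 (12.1), chr20:62711098-62711323 (13.3) and chr20:62733396-62733675 (20.5). Hypoxia replicate 1 had its nearest peaks 16.6 to 38.9 kb away from these, and the nearest peak of hypoxia replicate 2 was 57.1 kb away. The second group of 4 was on chromosome 22, with a peak at chr22:19744211-19744461 (percentile 1.08) and 3 more between 19753380 and 19754831 at percentiles of 46.4, 50.1 and 18.0. Those 3 lay 258 and 332 bp apart, and were 20.4 to 21.6 kb from hypoxia replicate 1 and at least 73.8 kb from hypoxia replicate 2. The first of the 18 groups of 3, on chromosome 1, held peaks at chr1:38470940-38471177, chr1:38512577-38513180 and chr1:38530029-38530304, at percentiles of 2.39, 7.12 and 6.27. Runs of lone normoxia peaks had no more than 4 members. The longest run of lone peaks had 92 in hypoxia replicate 1, or 16 without the windows, and 5 in hypoxia replicate 2. The number of lone peaks bears on run length too, so these values do not compare the lists either.

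**Figure D5:**
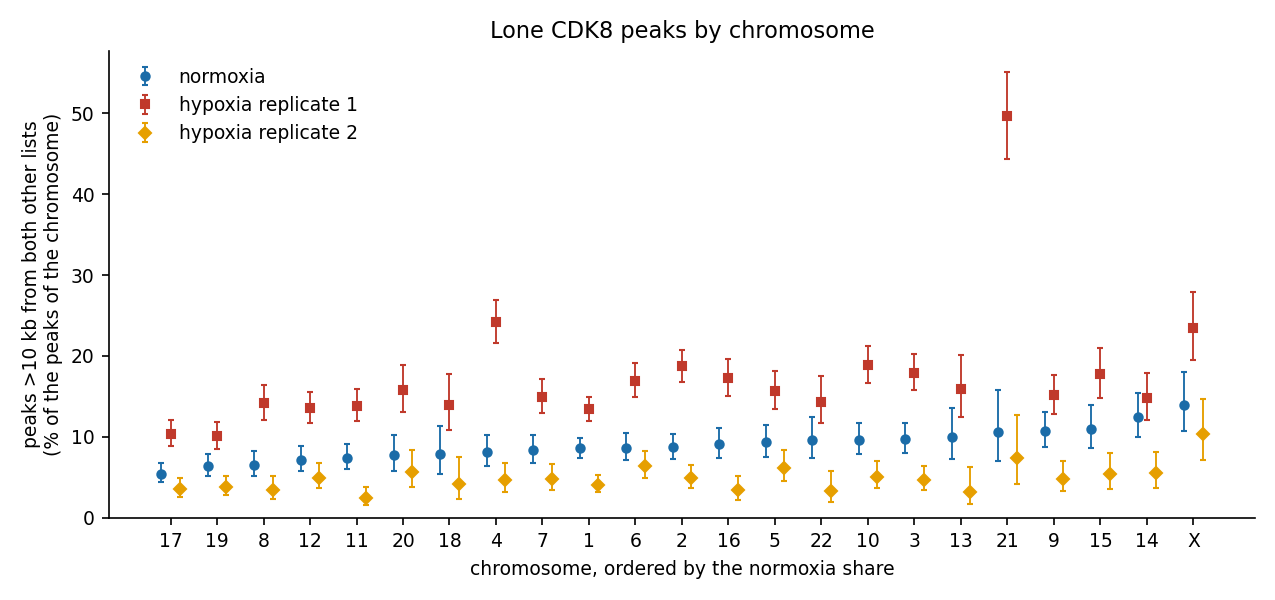
Percent of the peaks of each chromosome that are lone (vertical axis), for normoxia and both hypoxia replicates, with Wilson 95% intervals; chromosomes are ordered by the normoxia share. Normoxia runs from 5.46% on chromosome 17 to 14.0% on chromosome X, and hypoxia replicate 1 reaches 49.7% on chromosome 21.

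The share of normoxia peaks that were lone differed between chromosomes. It was lowest on chromosome 17 (74 of 1355 peaks, 5.46%, 4.37 to 6.80), chromosome 19 (79 of 1228, 6.43%, 5.19 to 7.95) and chromosome 8 (61 of 934, 6.53%). It was highest on chromosome X (48 of 344, 14.0%, 10.7 to 18.0), followed by chromosome 14 (72 of 578, 12.5%) and chromosome 15 (61 of 554, 11.0%). The intervals of chromosomes 17 and X did not overlap, but these were picked as the extremes of 23, so some gap comes with the choice. For 17 of the 23 chromosomes the interval held the median over chromosomes, 8.69%. Chromosome X also had the highest lone share in hypoxia replicate 2 (10.3%) and, without the windows, in hypoxia replicate 1 (20.6%), and chromosome 19 the lowest in hypoxia replicate 1 (10.1%). With the windows, chromosome 21 stood highest in hypoxia replicate 1, at 166 of 334 peaks (49.7%), and without them 26 of 189 were lone there (13.8%). Outside the windows, chromosome X was thus high in all 3 lists. It also had the fewest peaks per Mb in each of them, with 2.26 in normoxia. Chromosomes 17 and 19, with the lowest normoxia shares, had 16.7 and 20.9 normoxia peaks per Mb. The rule favours sparse regions, so these shares are not read as a trait of a chromosome. Per Mb between the first and last listed peak, lone normoxia peaks ranged from 0.316 on chromosome X to 1.46 on chromosome 22, a 4.62-fold range, while all normoxia peaks had a 9.23-fold range. The corresponding ranges were 7.49-fold and 8.52-fold in hypoxia replicate 1, and 7.26-fold and 9.70-fold in hypoxia replicate 2. The rule removes peaks where the lists are dense, so a narrower range for lone peaks is part of the selection.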

How the data were processed

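Each of the 3 CDK8 libraries has 1 deposited peak list with chromosome, start, end, a peak name of the MACS kind and the authors' score. MACS2 2.0.9, Bowtie 0.12.7, CASAVA 1.8.2 and FastQC, with the build GRCh37/hg19, are named per the submitters' processing notes, with no role, order or setting stated. The file names call the lists merged, without saying of what; the calling threshold and read depth are likewise not given in the sources used here. Normoxia and hypoxia replicates 1 and 2 had lowest deposited scores of 5.00, 5.01 and 5.05. Scores were used only as percentiles within a list.

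Distances were computed between peak edges with pandas 2.3.3, numpy 2.4.6 and scipy 1.17.1 (Python 3.11.15); matplotlib 3.10.9 drew the figures. Coordinates are given counted from 1. Peaks exactly 10 kb away count as near. The distance and lone rules were tested on simulated lists. Shares have Wilson 95% intervals for counting error, and medians have order-statistic intervals; peaks are not replicates, so no p-value was computed. Named peaks are the 10 best-scoring, the 5 widest and the 5 farthest lone normoxia peaks, 3 on either side of 10 kb, and the 3 largest groups. The peaks and rules were chosen with earlier results of these data known.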

Additional observations from a re-analysis of the deposited data

Results flagged for a closer look

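Chromosome Y, outside the chromosomes examined, held 122 peaks of hypoxia replicate 1 and 0 of both other lists. The mitochondrial genome (M) held 5 peaks in hypoxia replicate 2, beside 3 in normoxia and 2 in hypoxia replicate 1. It was flagged only because 5 is above a count floor of 3, and such small counts do not set the lists apart.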

How the results depend on the processing

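Normoxia had a lone share between the hypoxia replicates under each alternative with all 3 libraries except equal list sizes. In the order normoxia, hypoxia replicate 1, hypoxia replicate 2, the shares were 18.7%, 28.6% and 10.8% with no overlap alone, 10.0%, 18.8% and 5.57% at 5 kb, and 6.51%, 12.9% and 3.47% at 20 kb, which follow from the looser or stricter distance. They were 13.4%, 21.9% and 9.56% with the better-scoring 50% of each list, 8.24%, 14.5% and 11.0% with equal list sizes, and 2.69%, 8.06% and 1.67% when only the lone list was cut to its better-scoring 50%. Without the windows of hypoxia replicate 1, an alternative added after the data were seen, they were 8.55%, 13.9% and 4.60%. Without hypoxia replicate 1 the shares were 24.5% in normoxia and 9.04% in hypoxia replicate 2, and without hypoxia replicate 2 they were 15.3% in normoxia and 19.3% in hypoxia replicate 1. The median percentile of the lone normoxia peaks, 24.0, was 30.5 without hypoxia replicate 1, 30.8 without hypoxia replicate 2, 45.6 with equal list sizes, 63.0 with the better-scoring 50% of each list and 61.6 with that of the lone list only; the last 3 leave out low scores by construction. Their median width, 273.5 bp, was 414 bp with the better-scoring 50% of each list and at most 331 bp otherwise. Lone normoxia peaks with another within 50 kb were 22.1%, and 4.49% to 41.1% under the alternatives. Fewer peaks, fewer lists or another distance move these values by construction; for anything further the cause was not tested. The share at promoters was not run, as no annotation of the build was used. No paired analysis was possible because there is 1 normoxia library and no test. Unknown read depth limits each statement of absence.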
